A study of Mus musculus with 6 samples.

Results

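The regions described here are stretches of 100 kb of mouse autosomes in which peaks of 5-hydroxymethylcytosine (5hmC) covered far more DNA after 3 days of induced reprogramming than before it or in the finished induced pluripotent stem (iPS) cells. A window of 100 kb, starting at a multiple of 100 kb on build mm9, was chosen where day-3 5hmC peaks covered at least 10 kb more than the fibroblast 5hmC peaks and at least 10 kb more than the iPS 5hmC peaks. The rule picked 340 of 24725 autosomal windows, or 1.38% of them, and these are called burst windows below. The windows were thus chosen by the 5hmC coverage of all 3 stages, and 5hmC values in them are descriptions. The 5mC lists took no part in the choice.

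The cells came from a secondary system, in which fibroblasts are taken from mice that were themselves made from iPS cells. All groups were of the strain OG2-GFP/Rosa26-M2rtTA, so all carried the transactivator that makes the factors respond to doxycycline and a green fluorescent reporter. Fibroblasts from TSKM iPS mice at passage 4 were grown in feeder medium, with no doxycycline in their labels. Day-3 cells were such fibroblasts in ES medium with doxycycline for 3 days, so that drug and medium changed together. The iPS cells were 1 line from this system, induced by Tet1, Sox2, Klf4 and c-Myc, grown on feeder cells and taken at passage 10 to 15. 5hmC and 5-methylcytosine (5mC) were each captured with an antibody and sequenced, with 1 library for each of the 3 stages and 2 marks.

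The authors deposited 1 list of peaks per library. These lists differ in length and their read depth is unknown. No replicate exists, so no difference between stages could be tested, and a longer list covers more of any window. The autosomal length under 5hmC peaks was 35.5 Mb in fibroblasts, 126 Mb at day 3 and 186 Mb in iPS cells, and that under 5mC peaks was 110.4 Mb, 169 Mb and 59.4 Mb.

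5hmC is made from 5mC by the TET enzymes, of which Tet1 is a member and here also an induced factor. It can be oxidised further and lost, or diluted when DNA is copied, so it marks both a step in demethylation and a state that can last. In fibroblasts 5hmC is usually sparse, and pluripotent cells express Tet1 strongly. Antibody capture reads whole fragments and favours those with many modified cytosines. It does not show whether both marks lay on the same molecule.

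The window with the largest burst shows the pattern. It lies on chromosome 3 from 126300001 to 126400000. There the length under 5hmC peaks was 3.20 kb before induction, 66.5 kb on day 3 and 13.6 kb in the iPS line. Day-3 coverage was thus 52.9 kb above the higher of the other stages, the widest margin of the 340 windows. The 5mC coverage of this window was 7.17 kb, 10.4 kb and 1.51 kb at the 3 stages. The day-3 5hmC coverage came from 40 peaks along the whole window, with a median width of 1259.5 bp and a widest peak of 4902 bp. Fibroblasts had 4 5hmC peaks there and the iPS line had 16. 1 of the day-3 peaks, from 126325534 to 126327856, had the highest score of the whole day-3 5hmC list, at 3230.05.

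**Figure D1:**
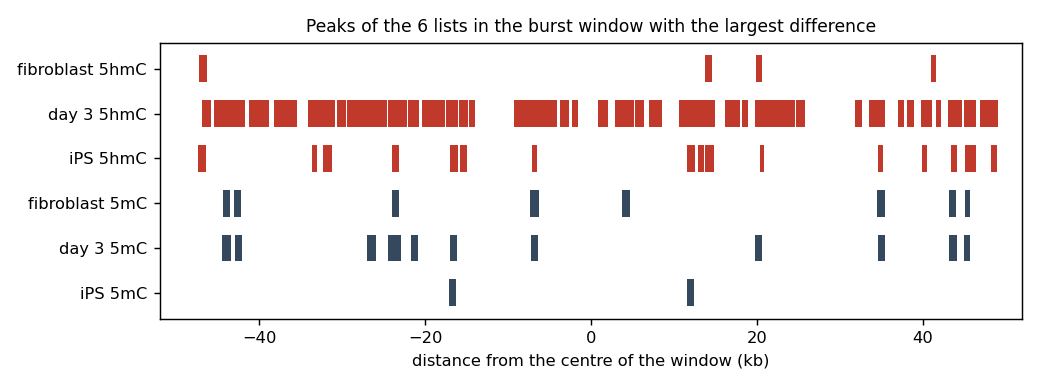
Peaks of the 6 lists in the burst window with the largest difference, drawn by distance from the centre of the window in kb. Red bars are 5hmC peaks and dark bars are 5mC peaks. The 5hmC rows hold 4 peaks in fibroblasts, 40 over most of the window at day 3 and 16 in iPS cells.

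The next 3 windows in this order had 52.4 to 78.3 kb of 5hmC at day 3 and more 5hmC in iPS cells than the top window. On chromosome 11 from 76100001 to 76200000, 5hmC coverage was 4.53 kb before induction, 78.3 kb on day 3 and 45.4 kb in the iPS line. This was the highest day-3 5hmC coverage of any autosomal window. On chromosome 1 from 154400001 to 154500000 the values were 1.44 kb, 62.7 kb and 31.2 kb. On chromosome 6 from 101200001 to 101300000 they were 1.30 kb, 52.4 kb and 21.7 kb. These windows were thus far above fibroblast level in iPS cells as well, and entered the set because day 3 lay higher still.

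Among the 10 windows with the largest margins there were also cases in which little of the day-3 5hmC was left. On chromosome 6 from 17400001 to 17500000, 5hmC coverage was 1.45 kb before induction, 33.5 kb on day 3 and 5.26 kb in the iPS line. On chromosome 4 from 9500001 to 9600000 it covered 0 kb, 34.5 kb and 9.18 kb. On chromosome 5 from 151900001 to 152000000 it covered 4.67 kb, 40.8 kb and 10.5 kb. The remaining 3 of the 10, on chromosomes 2, 5 and 17, had 40.9 to 45.5 kb at day 3 and 13.5 to 17.6 kb in the iPS line. All 10 windows met the rule again with each alternative for the peaks used and the scale. With the window borders moved, each shared 50 kb with a window that met it. The smallest margin of the 10 was 25.4 kb, so margins of 5 kb and 20 kb were bound to choose them again.

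The windows just inside the threshold had margins of 10.02, 10.03 and 10.05 kb, and the windows just outside had 9.99, 9.96 and 9.94 kb. The window just inside on chromosome 5 from 131700001 to 131800000 had 3.23 kb of 5hmC before induction, 18.7 kb on day 3 and 8.66 kb in the iPS line. The window just outside on chromosome 2 from 115200001 to 115300000 had 0 kb, 10.7 kb and 0.709 kb.

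Over the 340 burst windows, 5hmC coverage had a median of 1.91 kb in fibroblasts (lowest 0 kb, highest 10.1 kb), 24.1 kb at day 3 (10.6 to 78.3 kb) and 10.3 kb in iPS cells (0 to 48.3 kb). The summed coverage was 0.770 Mb, 9.21 Mb and 4.34 Mb. Burst windows thus held 2.17% of the autosomal 5hmC coverage of fibroblasts, 7.30% of that of day 3 and 2.33% of that of iPS cells. In the other 24385 autosomal windows the medians were 0.808 kb, 1.84 kb and 2.21 kb at the 3 stages. The burst windows were therefore above the typical window at all 3 stages, most of all at day 3.

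The burst windows were set beside the windows that had a day-3 gain of at least 10 kb over fibroblasts but did not exceed iPS cells by 10 kb. There were 3040 of these, called retained-gain windows here, although in 190 of them less than 50% of the gain was present in iPS cells. A gain of at least 10 kb by day 3 occurred in 3380 windows in all, or 13.7% of the autosomal ones, so the burst windows were the smaller part of the early gains. Fibroblast 5hmC had a median of 1.91 kb in burst windows and 2.11 kb in retained-gain windows, far below the day-3 levels of both. Day-3 5hmC was 24.1 kb in burst and 17.3 kb in retained-gain windows, and iPS 5hmC was 10.3 kb and 21.9 kb. The rule used all of these 5hmC values.

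**Figure D2:**
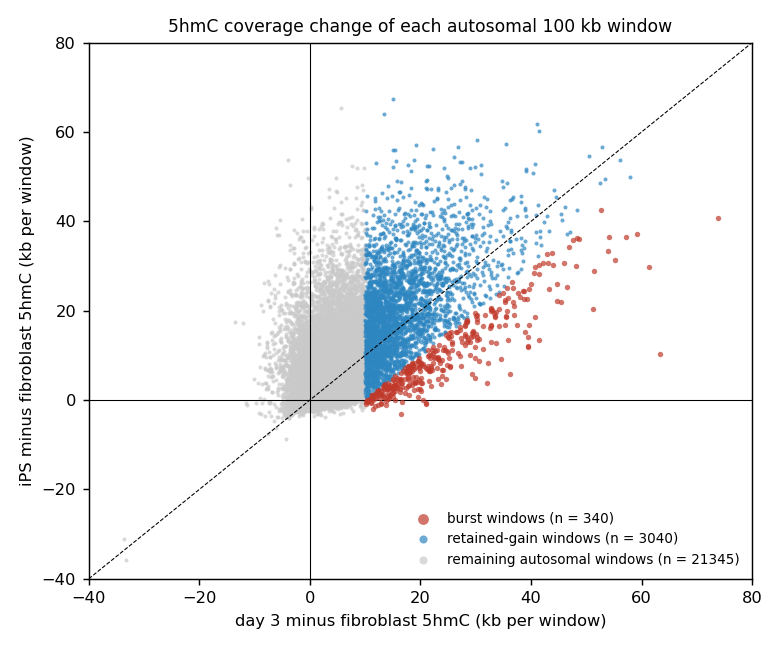
Change in 5hmC coverage of each autosomal window, with day 3 minus fibroblasts on the x axis and iPS cells minus fibroblasts on the y axis, both in kb per window. Points on the dashed line have the same coverage at day 3 and in iPS cells. The 340 burst windows (red) lie to the right of and below that line and mostly above 0 on the y axis, while the 3040 retained-gain windows (blue) lie on both sides of it.

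In iPS cells 5hmC covered more than in fibroblasts in 319 burst windows, or 93.8%, against 61.7% of all autosomal windows and all 3040 retained-gain windows. The rules that chose both sets used these values. 5hmC coverage of iPS cells equalled that of fibroblasts in 5552 of all autosomal windows and in 1 burst window. The part of the day-3 gain over fibroblasts that was present in iPS cells had a median of 37.0%, with quartiles of 18.99% and 51.5%. In 21 windows, 6.18% of the set, iPS 5hmC was at or below fibroblast 5hmC. In 226 windows some but less than 50% of the gain was present, and in 93 windows 50% or more was. The window with the lowest part lay on chromosome 11 from 81800001 to 81900000 and had 4.77 kb before induction, 21.2 kb on day 3 and 1.64 kb in the iPS line. The window with most of its gain present, at 80.5%, lay on chromosome 16 from 92600001 to 92700000 and had 5.85 kb, 58.6 kb and 48.3 kb. These 2 windows were chosen after their values were seen.

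The part of the gain that was present in iPS cells went with the amount of 5mC in fibroblasts. In the 21 windows at or below the fibroblast level, 5mC peaks covered a median of 1.45 kb in fibroblasts. The median was 4.09 kb in the 226 windows with less than 50% of the gain and 11.6 kb in the 93 windows with 50% or more. With the burst windows in 4 equal groups by fibroblast 5mC coverage, the median part of the gain present in iPS cells was 17.7%, 29.2%, 43.2% and 58.8% from the lowest to the highest group. Day-3 5hmC coverage also differed between these groups, with medians of 17.6 kb, 21.1 kb, 28.2 kb and 37.4 kb. A window with more day-3 5hmC can keep a larger part and still meet a fixed margin of 10 kb, so the part played by the rule in this order was not tested.

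5mC in burst windows had the order of stages of the whole lists, highest at day 3 and lowest in iPS cells. Its coverage had a median of 5.19 kb in fibroblasts (0 to 29.96 kb), 9.63 kb at day 3 (0.728 to 51.3 kb) and 2.41 kb in iPS cells (0 to 18.2 kb). Day-3 5mC exceeded fibroblast 5mC in 331 of the 340 windows, or 97.4%, against 71.2% of all autosomal windows. It did so in 98.9% of the retained-gain windows. Coverage was equal at both stages in 5571 of all autosomal windows and in 0 burst windows.

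In burst windows the change of 5mC was smaller than that of 5hmC. The rule asked for a 5hmC gain of at least 10 kb and for no 5mC gain, so this order is a description. Day-3 minus fibroblast 5hmC coverage had a median of 21.9 kb in burst windows and 0.786 kb over all autosomal windows. The median of day-3 minus fibroblast 5mC coverage was 4.29 kb in burst windows, 6.11 kb in retained-gain windows and 1.19 kb over all autosomal windows. The day-3 5mC list is the longest of the 5mC lists, and when each list was limited to equally many of its top-scored peaks the median was 0.914 kb in burst windows and 1.81 kb in retained-gain windows. A 5mC gain of at least 10 kb by day 3 occurred in 32 burst windows, or 9.41%, against 3.16% of all autosomal windows and 16.7% of the retained-gain windows. The same 32 windows also had day-3 5mC at least 10 kb above iPS 5mC, so that the rule applied to 5mC would have chosen them too. That rule is met by 3.10% of all autosomal windows. In the other 308 burst windows the 5hmC burst had no 5mC burst of this size beside it.

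iPS 5mC was below day-3 5mC in 338 of the 340 burst windows, or 99.4%, against 74.7% of all autosomal windows and 99.8% of the retained-gain windows. It was lower by at least 10 kb in 107 burst windows, or 31.5%, against 15.3% of all autosomal windows and 61.3% of the retained-gain windows. Compared with fibroblasts, iPS 5mC was lower in 301 burst windows, or 88.5%, against 57.6% of all autosomal windows and 95.6% of the retained-gain windows. iPS 5mC coverage equalled that of day 3 in 5620 of all autosomal windows and in 0 burst windows. It equalled that of fibroblasts in 8198 of all autosomal windows and in 8 burst windows. The iPS 5mC list is the shortest of the 5mC lists, and these counts contain that.

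**Figure D3:**
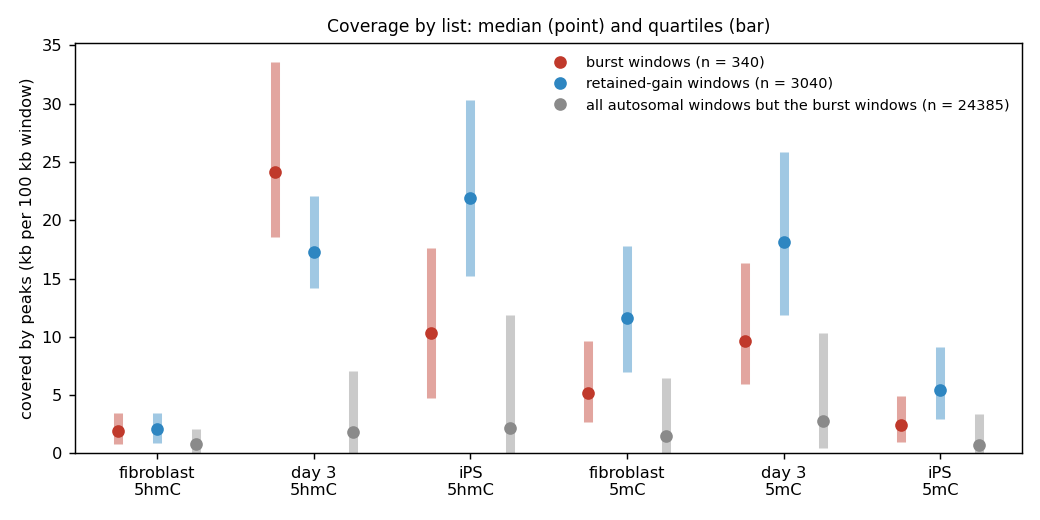
Coverage in kb per 100 kb window for each of the 6 lists, with points for the median and bars from the lower to the upper quartile, in burst windows (red), retained-gain windows (blue) and all autosomal windows other than the burst windows (grey). Burst windows have the highest day-3 5hmC and lie between the other sets in all 3 5mC lists.

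Day-3 5hmC covered more than day-3 5mC in 334 of the 340 burst windows, against 27.9% of all autosomal windows and 51.8% of the retained-gain windows. The summed day-3 5hmC coverage was 2.23 times that of 5mC in burst windows and 0.969 times in retained-gain windows. In fibroblasts 5hmC covered more than 5mC in 54 burst windows, or 15.9%, against 20.8% of all autosomal windows and 2.30% of the retained-gain windows. In iPS cells it did so in 319, or 93.8%, against 66.9% of all autosomal windows and 99.6% of the retained-gain windows. The shares of all autosomal windows are lowered by windows in which both marks covered the same length. There were 4734 of these at day 3, 5911 in fibroblasts and 6665 in iPS cells, against 0, 2 and 5 burst windows. In iPS cells 5hmC covered less than 5mC in 1507 of all autosomal windows and in 16 burst windows. The day-3 values contain the list that chose the windows.

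Day-3 5mC and day-3 5hmC coverage went together within both sets, with Spearman's rho of 0.695 over burst and 0.499 over retained-gain windows. Windows of similar day-3 5hmC coverage were therefore set side by side. At each level the burst windows had less fibroblast 5mC. Where day-3 5hmC covered 10 to 15 kb, fibroblast 5mC covered a median of 1.93 kb in 41 burst windows and 7.79 kb in 993 retained-gain windows. At 20 to 30 kb of day-3 5hmC the medians were 5.52 kb in 113 burst windows and 14.96 kb in 818 retained-gain windows. At 40 to 80 kb they were 15.7 kb in 48 burst windows and 24.9 kb in 60 retained-gain windows.

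Day-3 5mC gave the same order at every level, with medians of 4.46 kb in burst and 12.7 kb in retained-gain windows at the lowest and 24.1 kb and 34.9 kb at the highest. iPS 5mC did so too, with 0.923 kb in burst and 3.77 kb in retained-gain windows at the lowest level and 6.36 kb and 11.7 kb at the highest. These sets differ by their iPS 5hmC, and iPS 5hmC coverage went with fibroblast 5mC coverage within each of them. Spearman's rho was 0.741 over the 340 burst windows and 0.773 over the 3040 retained-gain windows, a description of windows that share libraries and base composition. The lower 5mC therefore goes with the lower iPS 5hmC that the rule asked for, and the parts of the 2 cannot be told apart.

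**Figure D4:**
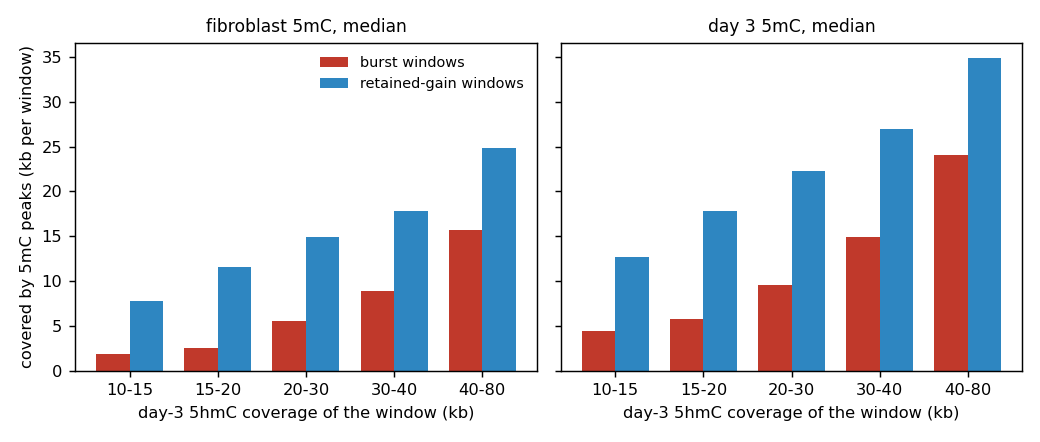
Median 5mC coverage in fibroblasts (left) and at day 3 (right), in kb per window, of burst windows (red) and retained-gain windows (blue) in 5 ranges of day-3 5hmC coverage. The red bar is the lower in each range, from 1.93 kb against 7.79 kb to 15.7 kb against 24.9 kb for fibroblast 5mC.

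As listed by the peak caller, the burst consisted of many peaks, most of them less than 3 kb wide. Day-3 5hmC peaks with their centre in a burst window numbered 6885, or 5.99% of the autosomal list, at 8 to 40 per window with a median of 19. The median number of 5hmC peaks per burst window was 2 in fibroblasts and 11 in iPS cells. The day-3 peaks had a median width of 1041 bp in burst windows, 998 bp in retained-gain windows and 921 bp in all autosomal windows outside the burst set. Of the day-3 peaks in burst windows, 4.82% were at least 3 kb wide (95% Wilson interval 4.34 to 5.35), against 2.82% in retained-gain windows and 1.50% outside the burst set. These wide peaks held 15.4% of the peak length in burst windows. Number and width depend on where the caller split peaks. On chromosome 3, the day-3 peaks from 126304539 to 126305461 and from 126305472 to 126308314 lay almost end to end. With peaks within 1 kb joined, the 442 windows then chosen held 5269 day-3 5hmC peaks. Whether the listed peaks were parts of wider blocks was not tested.

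Along a window the burst was spread out. Day-3 5hmC peaks were found in a median of 9 of the 10 stretches of 10 kb in a burst window, and in all 10 of them in 96 windows. The most covered stretch held a median of 22.8% of the window's day-3 5hmC. In retained-gain windows peaks were found in a median of 8 of the 10 stretches and the most covered held 25.7%. A single stretch held 50% or more in 1 burst window. The rule asked for at least 10 kb of day-3 5hmC, which takes many peaks of this width. The sets were not matched for day-3 5hmC coverage, with medians of 24.1 kb in burst and 17.3 kb in retained-gain windows.

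The best-scoring peaks of the day-3 list were frequent in these windows. The rule had chosen the windows by the coverage of that same list, so the shares are descriptions. Burst windows held 5.99% of all autosomal day-3 5hmC peaks and 7.30% of the day-3 5hmC coverage. Of the 277 autosomal day-3 5hmC peaks with a score of at least 3100, 75 lay in burst windows, or 27.1% (22.2 to 32.6), and of the 3691 with a score of at least 1000, 14.5% (13.4 to 15.7) did. The score is the peak caller's value for a single peak and depends on depth. The widest day-3 5hmC peaks of the burst windows shared a score of exactly 3100, at rank 28 of the list. Most of the 277 peaks thus had exactly this score, so the limit of 3100 marks a shared value and not a graded top class. The order of scores at the top is therefore not read as an order of strength. The widest day-3 5hmC peak of the burst windows, of 11019 bp on chromosome 11 from 117168829 to 117179847, overlapped a peak of every other list. Within burst windows, the best scores after that of the peak on chromosome 3 belonged to peaks on chromosome 18 from 75538638 to 75544906, on chromosome 9 from 99696136 to 99701276 and on chromosome 1 from 154454584 to 154460759. Each of these 4 peaks met a day-3 5mC peak. The next peak, on chromosome 15 from 85511663 to 85517551, met no 5mC peak of any stage. All 5 met an iPS 5hmC peak and none met a fibroblast 5hmC peak. These peaks were named by their width and score, after the values were seen.

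Of the day-3 5hmC peaks in burst windows, 57.5% (56.4 to 58.7) had a counterpart in neither other 5hmC list. The share was 39.4% in retained-gain windows and 48.5% in all autosomal windows outside the burst set. Overlap with an iPS 5hmC peak was found for 39.8% (38.7 to 41.0), against 59.01% in retained-gain windows and 49.2% in all autosomal windows outside the burst set. With lists of equal length it was 22.1% in burst windows, 41.1% in retained-gain windows and 26.9% outside the burst set. With scaled 5hmC lists it was 50.9%, 59.9% and 48.4%, so that the order of burst windows and those outside turned. Overlap with fibroblast 5hmC was found for 9.57%, against 11.5% in retained-gain windows and 13.5% outside the burst set. Measured in base pairs, 30.4% of the day-3 peak length was also covered by iPS 5hmC and 5.32% by fibroblast 5hmC. Traced back from iPS cells, 71.3% (69.9 to 72.6) of the 4063 iPS 5hmC peaks in burst windows lay on a day-3 peak. The share was 47.9% in retained-gain windows and 32.0% outside the burst set. The rule used these 3 lists and asked for more day-3 than iPS 5hmC, so the shares are descriptions of the chosen windows.

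Of the day-3 5hmC peaks in burst windows, 38.01% overlapped a 5mC peak of any stage, against 52.6% in retained-gain windows and 44.5% in all autosomal windows outside the burst set. A fibroblast 5mC peak overlapped 21.3% of the day-3 5hmC peaks in burst windows (20.3 to 22.3), 34.7% of those in retained-gain windows (34.2 to 35.1) and 28.0% of those in all autosomal windows outside the burst set (27.8 to 28.3). With the 5hmC lists scaled to the same total before the windows were chosen, the share was 28.4% in burst windows and 27.6% outside the set, so that this order turned, while retained-gain windows stayed above both at 35.6%. A day-3 5mC peak overlapped 34.8% of the day-3 5hmC peaks in burst windows and 49.03% of those in retained-gain windows. No 5mC peak of any stage and no other 5hmC peak overlapped 44.6% (43.5 to 45.8) of the burst peaks, against 27.9% in retained-gain windows and 37.6% outside the burst set. These 3073 peaks were narrower, with a median of 922 bp against 1253 bp for the 2617 on 5mC of any stage.

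Of the 2299 fibroblast 5mC peaks in burst windows, 64.9% (62.9 to 66.8) overlapped a day-3 5hmC peak, against 47.3% in retained-gain windows. For day-3 5mC peaks the shares were 61.8% in burst and 45.1% in retained-gain windows. The windows were chosen for their day-3 5hmC coverage, which was higher in the burst windows, so these shares too are descriptions. At day 3, 90.3% (89.1 to 91.5) of these fibroblast 5mC peaks still had a 5mC peak, and in iPS cells 35.3% (33.4 to 37.3) had one. In retained-gain windows the shares were 92.6% at day 3 and 41.4% in iPS cells, and outside the burst set they were 89.7% and 39.4%.

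Within burst windows, day-3 5hmC peaks on fibroblast 5mC were more often present in iPS cells than those off it. The iPS 5hmC list held 73.7% (71.4 to 75.9) of the 1466 peaks on fibroblast 5mC and 30.7% (29.5 to 31.9) of the 5419 peaks off it. In retained-gain windows the shares were 84.4% and 45.6%, and in all autosomal windows outside the burst set they were 81.6% and 36.6%. Overlap counts from 1 bp, so a wider peak meets another list more easily. Burst peaks on 5mC of any stage had a median width of 1253 bp, against 1041 bp for all burst peaks. The part played by width was not tested. Both shares were lower in burst windows, where the rule had asked for less iPS 5hmC.

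The burst windows formed 284 runs, of which 240 were single windows, 34 were pairs, 8 were runs of 3 windows and 2 were runs of 4. In all, 100 of the 340 windows, or 29.4%, were next to another burst window. The window just before a burst window was itself a burst window in 16.5% of cases, against 1.38% of all autosomal windows. Of the runs of 4, that with more day-3 5hmC lay on chromosome 6 from 101100001 to 101500000. It had 7.38 kb of 5hmC before induction, 116.6 kb on day 3 and 45.9 kb in the iPS line. The other run of 4 lay on chromosome 19 from 28300001 to 28700000 and had 6.42 kb, 110.5 kb and 53.7 kb.

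Around burst windows the other lists changed far less with distance than day-3 5hmC. The rule chose the burst windows, and not their neighbours, for day-3 5hmC above that of the other stages. A maximum of day-3 5hmC in them is thus built in, and these values are descriptions. Mean day-3 5hmC coverage was 27.1 kb in the burst windows, 14.3 and 15.1 kb in the windows before and after them, and 7.49 and 7.001 kb at a distance of 500 kb on either side. Mean iPS 5hmC coverage was 12.8 kb in the burst windows, 12.6 and 13.3 kb in the next windows, and 9.77 and 9.65 kb at 500 kb. Day-3 5mC coverage was 12.1 kb in the burst windows and 11.3 and 12.2 kb in the next ones. Median day-3 5hmC coverage was 9.81 and 11.1 kb in those neighbours that were no burst windows themselves, above the 1.93 kb of all autosomal windows. At 200 kb and beyond, mean iPS 5hmC was above mean day-3 5hmC on both sides. Over all autosomal windows it was so too, at 7.53 kb against 5.11 kb.

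**Figure D5:**
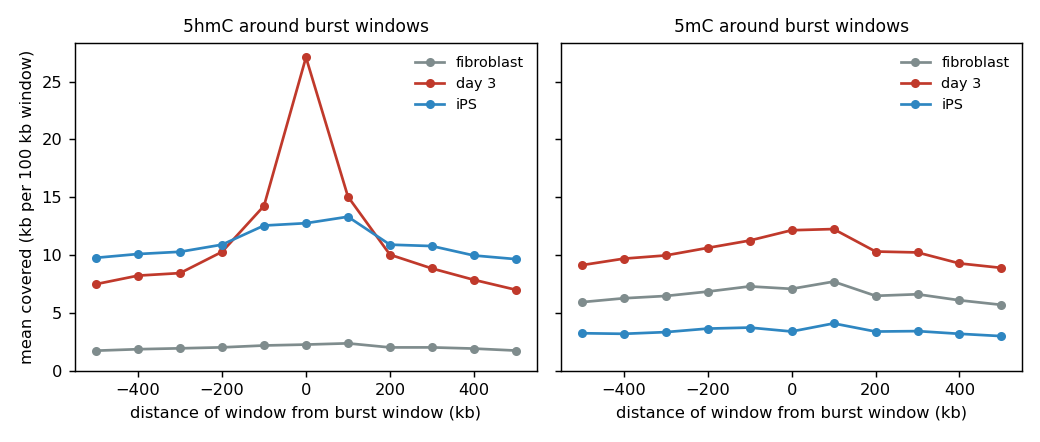
Mean coverage in kb per 100 kb window in the burst windows (distance 0) and in the windows up to 500 kb on either side, for 5hmC (left) and 5mC (right) at the 3 stages. Day-3 5hmC is 27.1 kb at distance 0 and 7.49 and 7.001 kb at the ends, while mean iPS 5hmC is 12.8 kb at distance 0 and 9.77 and 9.65 kb at the ends. The windows at distance 0 were chosen by their 5hmC coverage.

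Every autosome held burst windows, from 8 on chromosome 12 to 33 on chromosome 2. As a share of its windows, chromosome 19 had the most, with 18 of 614 or 2.93% (1.86 to 4.59), and chromosome 12 the fewest, with 8 of 1213 or 0.660% (0.335 to 1.30). The densest stretch of 2 Mb held 6 burst windows among 20, on chromosome 10 from 78900001 to 80900000. It was chosen after the values were seen. Another 11 of its windows were retained-gain windows. The 6 burst windows had 26.8 to 52.2 kb of day-3 5hmC.

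That stretch also held the 3 burst windows with the most day-3 5mC. The highest, from 79700001 to 79800000, had 29.2 kb of 5mC before induction, 51.3 kb on day 3 and 15.3 kb in the iPS line, and 3.16 kb, 43.8 kb and 31.6 kb of 5hmC. At the other end were windows in which the burst had hardly any 5mC. On chromosome 9 from 56200001 to 56300000 5mC covered 1.03 kb, 0.728 kb and 0 kb at the 3 stages, and 5hmC covered 0 kb, 15.0 kb and 3.24 kb. On chromosome 7 from 122800001 to 122900000 5mC covered 0 kb, 0.865 kb and 0 kb, and 5hmC 0 kb, 11.9 kb and 1.43 kb. A burst thus occurred both in windows widely covered by 5mC peaks and in windows almost free of 5mC peaks.

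The same rule turned to the other stages gave very different numbers. 5hmC was at least 10 kb above both other stages in 2 windows for fibroblasts, 340 for day 3 and 2890 for iPS cells. Day-3 5hmC was at least 10 kb below both other stages in 5 windows. For 5mC the numbers above both other stages were 0 for fibroblasts, 766 for day 3 and 1 for iPS cells. The order of these counts is that of the list lengths, apart from fibroblast 5mC.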

How the data were processed

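Per the submitters' processing notes, CASAVA 1.8, Bowtie 0.12.7 and MACS 1.4.1 were used with build mm9. For the role and settings of each tool, and for any control library, the sources used here give nothing. Each deposited file lists the peaks of 1 library with a score per peak, and the deposited scores start at 50. Read depth is unknown. Windows were laid from the chromosome start to the last position that any list covers, and base pairs under peaks were summed. A peak belongs to the window of its centre, and overlap counts from 1 bp. Intervals are 95% Wilson intervals and cover counting error only, and neighbouring peaks are not independent. Coordinates count from 1. The gene and promoter tables at hand are on another build, so no window was assigned to genes and no sequence was read. Windows were named by a rule on margin, threshold and 5mC. The windows, the rule and the comparisons were chosen with earlier results of these data known. Coverage and overlap counting were tested on simulated data and against bedtools 2.31.1. The scripts ran in Python 3.11.15 with pandas 2.3.3, numpy 2.4.6, matplotlib 3.10.9 and scipy 1.17.1.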

Additional observations from a re-analysis of the deposited data

Results flagged for a closer look

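The rule was limited to autosomes, but 6 windows of chromosome X met it too, out of 1665, or 0.360% (95% Wilson interval 0.165 to 0.784). The autosomal share was higher, at 1.38%. The result is listed because it lies in data outside the autosomal comparison and exceeds 3 windows, or 0.180%. That floor was a fixed setting for listing and no test. Of the 6, 3 were adjacent, on chromosome X from 139100001 to 139400000, with 5hmC coverage of 0.761, 0 and 0 kb in fibroblasts, 16.1, 17.3 and 11.1 kb at day 3, and 0, 1.46 and 0.645 kb in iPS cells. The chromosome X windows from 11600001 to 11700000 and from 11700001 to 11800000 were adjacent as well. Adjacent windows are not independent, and the interval does not allow for this. No window of chromosome Y met the rule among 30.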

How the results depend on the processing

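Each alternative changed 1 choice and chose the windows anew. The number of burst windows was 34 with a margin of 20 kb and 1255 with 5 kb. It was 339 with scores of at least 100, 385 with the 41931 best-scoring autosomal peaks of each list, 479 with the 5hmC lists scaled to the same total, 343 with windows starting 50 kb later and 442 with peaks within 1 kb joined. Membership moved more than the number: with the score limit, equal lists and scaling, 247, 216 and 258 of the 340 windows were chosen again, 237 shared 50 kb with a shifted window, and 334 were chosen again with joining. With the score limit, equal lists, scaling, shifted windows, joining, a margin of 20 kb and a margin of 5 kb, in this order, the median change of 5mC coverage from fibroblasts to day 3 was 3.97, 0.914, 5.60, 3.985, 4.61, 4.88 and 3.19 kb, above 0 and below that of retained-gain windows in each. The share of day-3 5hmC peaks on fibroblast 5mC was 13.99%, 16.8%, 28.4%, 21.3%, 26.7%, 25.03% and 19.8%, and 13.7% with an overlap of at least 50% of the peak. Their share on iPS 5hmC was 31.8%, 22.1%, 50.9%, 40.3%, 45.2%, 46.4% and 36.3%, and 29.8% with that overlap. Both shares were below those of retained-gain windows in every setting, and above those of the windows outside the burst set after scaling. The cause was not tested. No paired analysis was possible because each stage and mark has 1 library.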
